A study of Mus musculus with 5 samples.

Results

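The POU genes other than Oct4 were examined in embryos from which Oct4 had been deleted. Oct4, encoded by Pou5f1, is 1 member of a family of transcription factors. The question was whether any of its relatives was expressed at another level once it was lost. The genes described are the 8 rows of the deposited count table named Pou2f1, Pou2f2, Pou2f3, Pou3f1, Pou3f2, Pou3f3, Pou4f1 and Pou6f1, out of 49671 genes in the table. Each name had 1 row. With Pou5f1 and 6 further family members, the table held 15 POU genes.

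POU factors bind DNA through a POU-specific domain and a POU homeodomain joined by a flexible linker, and many of them recognise the same octamer sequence. Oct4 binds composite elements together with Sox2 and maintains pluripotency in the epiblast, the tissue that forms the embryo proper. Pou3f1 (Oct6) is the relative best known in the epiblast after implantation, and it also acts in Schwann cells. Pou2f1 (Oct1) is made in nearly all cells. The others are known mainly from later tissues, such as B cells for Pou2f2, keratinocytes and tuft cells for Pou2f3, neural progenitors for Pou3f2 and Pou3f3, and sensory neurons for Pou4f1.

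RNA had been sequenced from 2 SO+ and 3 SO− embryos of mixed strain background, collected at E6.75. A sample held the epiblast and the visceral endoderm (VE) of a single embryo, without the extra-embryonic ectoderm (ExE), which had been cut off. SO− embryos were Sox2Cre+/-; Oct4 fl/-, with 1 floxed and 1 null Oct4 allele and Cre driven by the Sox2 promoter, which acts predominantly in the epiblast and deletes Oct4 in a mosaic of cells at first. SO+ embryos were Sox2Cre-/-; Oct4 fl/+, so they carried a floxed allele but no Cre and no null allele. The comparison therefore holds Cre and the null allele together with the loss of Oct4. Whether embryos came from the same litter is not given in the sources used here, so p-values measure the spread between these 5 samples.

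Total counts were 27047148 and 27538119 in SO+ embryos and between 1117566 (embryo 2) and 4191498 (embryo 3) in SO− embryos. A level of 3 counts, used as the limit of detection, was 0.109 and 0.111 CPM (counts per 1000000 counts of the library) in SO+ embryos but 0.726, 2.68 and 0.716 CPM in SO− embryos 1, 2 and 3. These limits and all counting intervals cover counting error only, since PCR copies cannot be recognised. Each genotype also carried its own second sequencing index, so depth, index and genotype cannot be told apart. All 9 epiblast markers and all 12 VE markers examined were detected in the SO+ and SO− groups. The defining ExE markers Elf5 and Esrrb had at most 11 counts (2.62 CPM, SO− embryo 3) and 27 counts (0.98 CPM, SO+ embryo 1) in an embryo. Other listed ExE markers were more abundant. All 10 ExE markers summed to 65.0 and 78.3 CPM in SO+ and to between 92.8 and 136 CPM in SO− embryos. Most of each sum was Ets2 and Krt7, so the sums describe these genes more than the list.

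The POU family shares a coding stretch that shows how close the members are to Oct4, and how far reads of each can be told apart. The 60 bases of the Oct4 coding sequence most alike across the 8 members lie in the part for the POU-specific domain, in exon 3 of 5, which is inside the floxed region. They are printed 5′ to 3′ on the coding strand for Pou5f1, for both members expressed in these embryos and for the more distant Pou4f1, from GENCODE M21 transcripts on GRCm38. Capitals mark bases identical to Pou5f1 at the same place of the ungapped alignment.
Pou5f1: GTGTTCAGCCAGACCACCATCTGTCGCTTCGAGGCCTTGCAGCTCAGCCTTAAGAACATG
Pou3f1: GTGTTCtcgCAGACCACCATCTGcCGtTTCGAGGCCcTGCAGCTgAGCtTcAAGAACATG
Pou2f1: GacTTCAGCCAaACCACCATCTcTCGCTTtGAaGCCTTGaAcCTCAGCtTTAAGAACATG
Pou4f1: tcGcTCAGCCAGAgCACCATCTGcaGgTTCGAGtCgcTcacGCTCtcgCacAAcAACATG
These stretches lie at chr17:35509413-35509472 (Pou5f1, plus strand), chr4:124658559-124658618 (Pou3f1, plus strand, its single exon), chr1:165897668-165897727 (Pou2f1, minus strand, exon 10 of 17 of the transcript with the longest coding sequence) and chr14:104466023-104466082 (Pou4f1, minus strand, exon 2 of 3).

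Pou3f1 and Pou2f1 each matched Pou5f1 at 51 of 60 bases, and the 8 members ranged from 35 (Pou6f1) to 51 matches. Despite this likeness, the longest run of identical bases between any transcript of Pou5f1 and of another POU gene was 18 bases, with Pou3f1. The longest run between Pou3f1 and any other POU gene was 38 bases, with Pou3f2. Runs of 50 bases in Pou3f1 transcripts recurred in other annotated transcripts for 7.42% of positions, all of them in the antisense gene Gm2164, which had 0 counts in the 5 embryos (the table names it Gm27247). For Pou2f1 the share was 17.0%, nearly all in Cd247, which overlaps 3007 of its 16597 exonic bases on the opposite strand and had 24, 4, 1, 0 and 0 counts in SO+ embryos 1 and 2 and SO− embryos 1, 2 and 3. In Pou4f1 such runs matched only Pou4f2. Whether the counting used strand is not given in the sources used here.

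**Figure D1:**
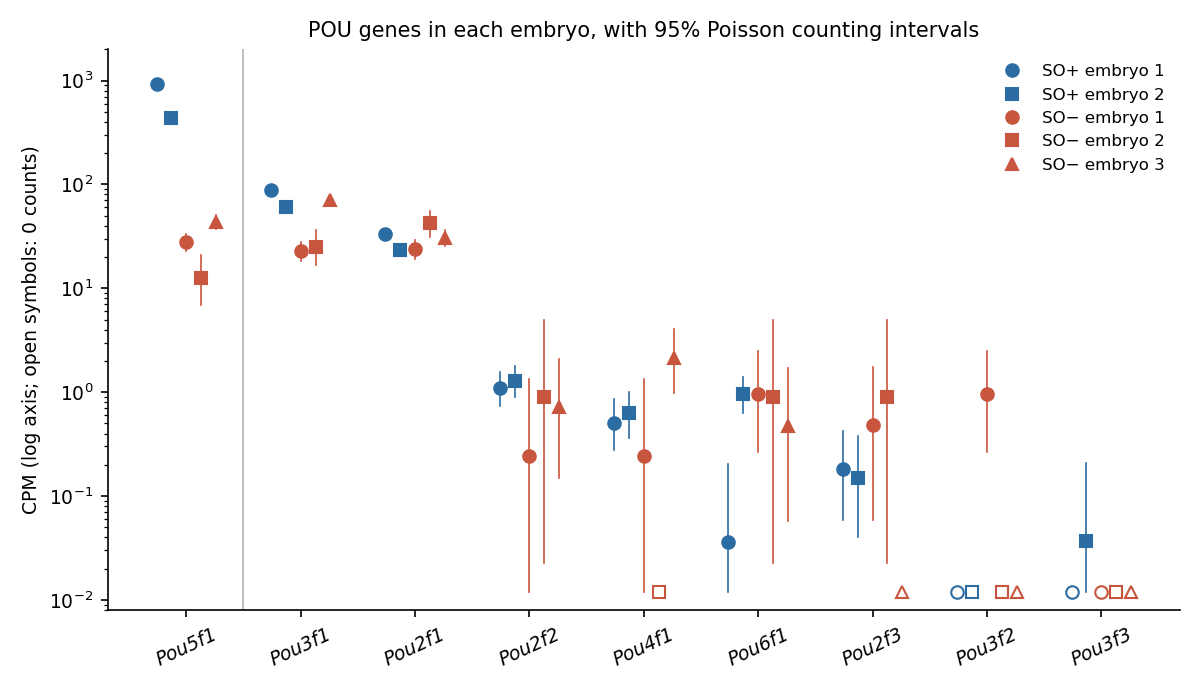
CPM of Pou5f1 (left of the line) and the 8 other POU members in each embryo, on a log axis. Circles, squares and triangles are embryos 1, 2 and 3, blue for SO+ and red for SO−. Vertical lines are 95% exact Poisson intervals for counting error, cut at the foot of the plot, and open symbols are embryos with 0 counts. Pou3f1 and Pou2f1 lay between 22.7 and 88.1 CPM in every embryo, whereas no other member passed 2.15 CPM.

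Pou5f1 (ENSMUSG00000024406) had 920.2 and 435 CPM in SO+ embryos 1 and 2, and 27.8, 12.5 and 43.7 CPM in SO− embryos 1, 2 and 3. The library with the most residual Pou5f1 in the SO− group was therefore embryo 3. Its log2 fold change, SO− over SO+, with the standard error (SE) of the fit, was −4.43 ± 0.33 (edgeR quasi-likelihood adjusted p = 3.94e-05). This is the targeted gene and checks the labels of the 5 libraries.

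None of the 8 members was called as changed, in either direction. Only Pou3f1 and Pou2f1 had enough counts to be tested, and 0 of these 2 passed an adjusted p of 0.05 by edgeR's quasi-likelihood method, where 2.35% of the 12067 genes tested passed (1.42% higher and 0.928% lower in SO− embryos). At an unadjusted edgeR p under 0.05 there was 1, Pou3f1, on the side of lower expression, where 1656 of the 12067 genes tested were under this limit. DESeq2 and limma-voom, which called 2.52% and 0.754% of their genes, called neither. The other 6 members failed the expression filter, and in a fit without a filter none of the 8 was called (1.44% of 21777 genes were).

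Pou3f1 (ENSMUSG00000090125, GRCm38 chr4:124656807-124660655, a single-exon gene) was the most abundant member. SO+ embryos 1 and 2 had 2426 and 1654 counts, or 88.1 and 61.2 CPM. SO− embryos 1, 2 and 3 had 94, 28 and 294 counts, or 22.7, 25.1 and 70.1 CPM. SO− embryos 1 and 2 thus lay below both SO+ embryos, at 30.5% and 33.6% of the SO+ mean, but SO− embryo 3 lay between the SO+ embryos at 94.0%, so the genotypes overlapped. The counting intervals of SO− embryo 3 (62.4 to 78.6 CPM) and SO− embryo 1 (18.4 to 27.8 CPM) were far apart, so counting error does not cover the spread within the genotype, which was 3.08-fold against 1.44-fold between SO+ embryos.

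The mean of Pou3f1 was 74.6 ± 19.1 CPM (SD, n = 2) in SO+ and 39.3 ± 26.7 CPM (SD, n = 3) in SO− embryos. The fitted log2 fold change was −0.84 (SE 0.35, 95% interval −1.60 to −0.08 not adjusted for the number of genes), with an edgeR adjusted p = 0.300. An unadjusted p at or below that of Pou3f1 was found for 11.1% of all genes tested, and a log2 fold change at or below −0.84 for 4.39%. DESeq2 gave −0.91 (SE 0.71, adjusted p = 0.845).

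The call on Pou3f1 depended on single embryos. Without SO− embryo 3 the log2 fold change was −1.67 (SE 0.24, edgeR adjusted p = 0.00479, where 1.83% of genes were called), and without SO+ embryo 2 it was −1.08 (edgeR adjusted p = 0.0376, where 4.5% were called). Without SO− embryo 1, SO− embryo 2 or SO+ embryo 1 it was −0.52, −0.67 and −0.56, and edgeR's adjusted p then lay between 0.659 and 0.739. The sign was the same in each of these fits. SO− embryos 1 and 2 below both SO+ embryos, with SO− embryo 3 above the lower of them, was an order shared by 8.45% of the genes tested.

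**Figure D2:**
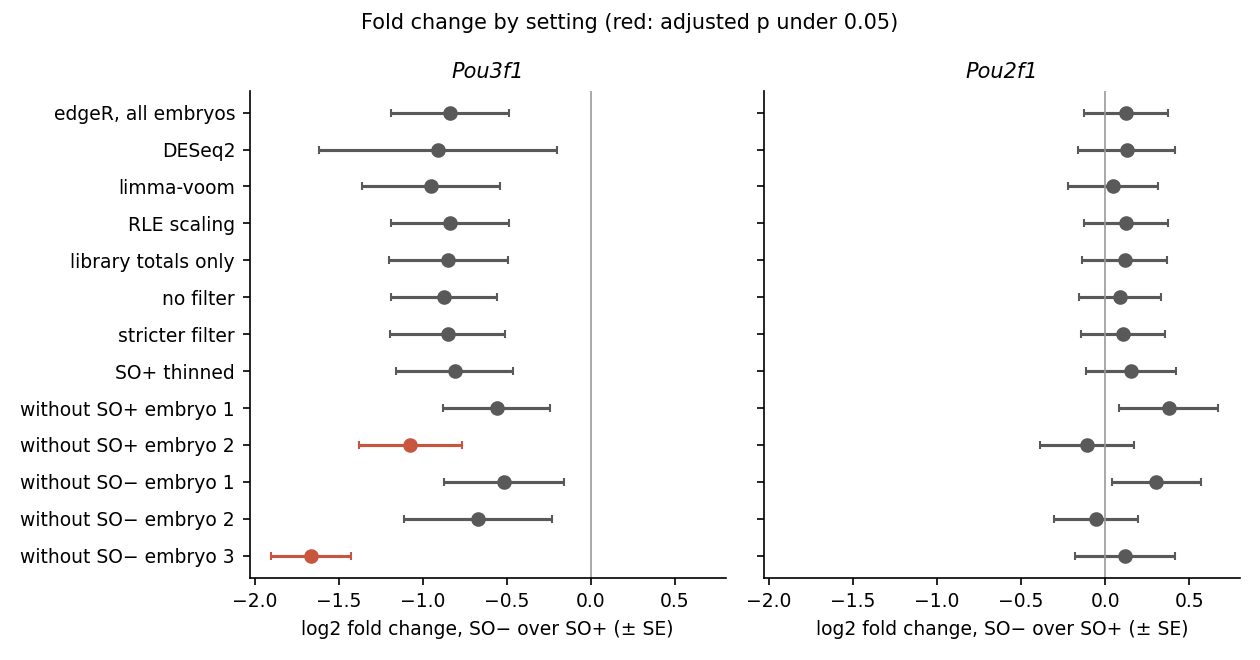
Fitted log2 fold change (SO− over SO+) of Pou3f1 and Pou2f1 with its standard error, for edgeR on all embryos and for 12 other settings, in red where the adjusted p was under 0.05. Pou3f1 lay below 0 in every setting shown and was red without SO+ embryo 2 and without SO− embryo 3, whereas Pou2f1 lay on both sides of 0.

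Pou2f1 (ENSMUSG00000026565, GRCm38 chr1:165865154-166002678) encodes the widely expressed Oct1, which takes part in transcription of small nuclear RNA and histone genes. It had 913 and 637 counts in SO+ embryos 1 and 2, or 33.2 and 23.6 CPM. SO− embryos 1, 2 and 3 had 98, 47 and 128 counts, or 23.7, 42.1 and 30.5 CPM. The genotypes overlapped fully: the lowest value was in SO+ embryo 2 and the highest in SO− embryo 2, the smallest library, whose counting interval ran from 30.9 to 55.9 CPM.

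The means of Pou2f1 were 28.4 ± 6.79 CPM (SD, n = 2) in SO+ and 32.1 ± 9.28 CPM (SD, n = 3) in SO− embryos. The log2 fold change was 0.12 (SE 0.25, 95% interval −0.42 to 0.66, edgeR adjusted p = 0.910). Its sign turned without SO+ embryo 2 (−0.11) and without SO− embryo 2 (−0.05), so these data give it no direction. A change as large as that of Pou5f1 lay outside the interval, but a rise or fall of the size of the interval's ends could not be told from none.

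Levels were compared between members per length, as FPKM (counts per kilobase of merged exons, on the CPM scale). Pou3f1 had 19.4 ± 4.95 FPKM (SD, n = 2) in SO+ and 10.2 ± 6.94 FPKM (SD, n = 3) in SO− embryos, and Pou2f1 had 1.71 ± 0.41 and 1.93 ± 0.56 FPKM. Pou3f1 was first and Pou2f1 second in every embryo. Pou5f1 itself had 301.5 ± 152.5 FPKM (SD, n = 2) in SO+ and 12.5 ± 6.92 FPKM (SD, n = 3) in SO− embryos.

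The ratio of Pou3f1 to Pou2f1 per length was 11.5 and 11.2 in SO+ embryos 1 and 2, and 4.14, 2.57 and 9.90 in SO− embryos 1, 2 and 3. Every SO− ratio lay below both SO+ ratios, with embryo 3 close to them. The ratio of SO− embryo 3 rests on 294 and 128 counts, and that of SO− embryo 2 on 28 and 47. Counting error of the ratios was not computed. Among single genes tested, 29.5% had CPM ranges that did not overlap between genotypes. Pou3f1 made up 90.9% and 89.3% of the summed FPKM of the 8 members in SO+ embryos, against 74.9%, 68.0% and 88.1% in SO− embryos. Relative to Oct4, the ratio of Pou3f1 to Pou5f1 per length was 0.0559 and 0.0821 in SO+ embryos, against 0.477, 1.17 and 0.938 in SO− embryos. This second ratio was higher in SO− embryos while Pou3f1 itself was no higher than in SO+ embryo 1 in any of them. With the longest transcript in place of merged exons, the ratio of Pou3f1 to Pou2f1 in SO+ embryos was 8.91 on average against 11.3.

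**Figure D3:**
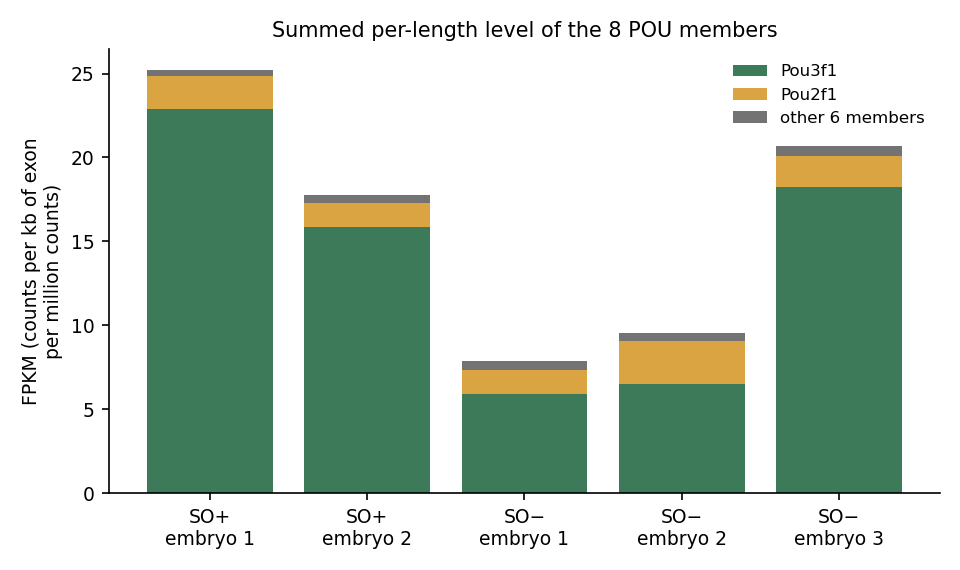
Summed FPKM of the 8 POU members in each embryo (bars start at 0), divided into Pou3f1, Pou2f1 and the other 6 members. The sums were 25.2 and 17.8 FPKM in SO+ embryos, against 7.89, 9.57 and 20.7 FPKM in SO− embryos, and Pou3f1 was the largest part of every bar.

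The other 6 members had few counts, with 50 and 83 counts in all in SO+ embryos 1 and 2, and 12, 3 and 14 in SO− embryos 1, 2 and 3. In SO+ embryos Pou2f2, Pou4f1 and, narrowly, Pou2f3 (5 and 4 counts) lay above the limit of 3 counts, as did Pou6f1 in embryo 2. Pou2f2, Pou4f1, Pou6f1 and Pou2f3 averaged 0.145, 0.122, 0.0718 and 0.0533 FPKM in SO+ embryos, and each overlapped its neighbour in this order. In SO− embryos the order was Pou4f1, Pou2f3, Pou6f1, Pou2f2 and Pou3f2, with ranges that all overlapped.

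Pou2f2 (Oct2), known for its part in B cells, was the only member whose CPM did not overlap between genotypes, against 29.5% of all genes tested (15.6% with SO− embryos lower). It had 30 and 35 counts in SO+ embryos (1.09 and 1.29 CPM) and 1, 1 and 3 counts in SO− embryos 1, 2 and 3 (0.242, 0.895 and 0.716 CPM). All 3 SO− values were at or under the limit of 3 counts. At the pooled SO+ rate, 4.92, 1.33 and 4.99 counts would correspond to the sizes of the SO− libraries, a sum of 11.2 against 5 observed. In the fit without a filter the log2 fold change was −1.12 (SE 1.02, edgeR adjusted p = 0.812), so a difference was not detectable at this depth. Of the B cell and leukocyte markers, Ptprc was at 0 in all 5 embryos.

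Pou6f1 and Pou4f1, both better known from neurons, were uneven within a genotype. Pou6f1 had 1 and 26 counts in SO+ embryos 1 and 2, or 0.0363 and 0.961 CPM, with counting intervals (0.000919 to 0.202 and 0.628 to 1.41 CPM) that did not meet. It had 4, 1 and 2 counts in the SO− embryos, which lie within the range of SO+ embryos in CPM except for 0.967 CPM in SO− embryo 1.

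Pou4f1 (Brn3a) had 14 and 17 counts in SO+ embryos (0.508 and 0.629 CPM) and 1, 0 and 9 in SO− embryos 1, 2 and 3. The 9 counts of SO− embryo 3 were 2.15 CPM, the highest value of any member other than Pou3f1 and Pou2f1, with a counting interval of 0.982 to 4.08 CPM that met that of SO+ embryo 2 (0.366 to 1.01 CPM) but not that of SO+ embryo 1 (0.278 to 0.853 CPM). Without a filter, Pou6f1 and Pou4f1 had log2 fold changes of 0.57 (SE 1.39) and 0.69 (SE 1.22), with an adjusted p of 0.906 and 0.902 from edgeR. Among 8 sensory neuron and neural crest markers, Tfap2b was at 0 in every embryo, and the summed level of the list ranged from 24.6 to 28.8 CPM in SO+ and from 26.9 to 35.6 CPM in SO− embryos. Of these markers 2 passed, Isl1, also a gene of mesoderm, higher (1.82, edgeR adjusted p = 0.00237), and Foxd3, also a gene of the epiblast, lower (−3.16, edgeR adjusted p = 0.0261). Foxd3 lost the threshold without SO− embryo 1 (0.0868) and both lost it without SO− embryo 2 (0.0674 for Isl1 and 0.265 for Foxd3, adjusted by edgeR). Foxd3 did not pass with DESeq2 (adjusted p = 0.462) or limma-voom (adjusted p = 0.224).

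Pou2f3, the factor of keratinocytes and tuft cells, had 5 and 4 counts in SO+ embryos, against 2, 1 and 0 in SO− embryos. All 3 SO− values were under the limit of detection. The tuft cell markers summed to 18.7 and 11.7 CPM in SO+ and to between 2.68 and 10.3 CPM in SO− embryos. Most of each sum was Dclk1, with 18.41 and 11.35 CPM in SO+ and 5.32, 1.79 and 10.26 CPM in SO− embryos. The sums therefore describe this gene more than the list. Avil and Gfi1b were at 0 throughout. Dclk1 alone could be tested and did not pass. Pou3f3 (Brn1) had 1 count, in SO+ embryo 2, and Pou3f2 (Brn2) had 4 counts, all in SO− embryo 1 (0.967 CPM), with 0 in the other 4 embryos. For Pou3f2, 0 counts allow up to 0.109 and 0.111 CPM in SO+ embryos and up to 2.68 and 0.716 CPM in SO− embryos 2 and 3. No fold is given for 4 counts in 1 embryo, and the fit without a filter gave an adjusted p of 0.514 from edgeR.

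None of the POU genes outside the members, Pou5f1 aside, could be tested. Pou1f1, the pituitary factor, was at 0 in every embryo. Pou4f3 had 1 count over both SO+ embryos and 7 over the SO− embryos (5, 0 and 2 in embryos 1, 2 and 3). The pooled SO+ rate, which rests on that 1 count, would give 0.173 counts over the SO− libraries. In the fit without a filter Pou4f3 had an adjusted p of 0.522 from edgeR. Pou3f4, Pou4f2 and Pou5f2 had 3, 4 and 3 counts in SO+ embryos and none in SO− embryos. At the pooled SO+ rate only 0.519, 0.692 and 0.519 counts would correspond to the SO− libraries together. Their 0 counts therefore show no difference.

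Among 19 genes whose proteins act with POU factors, 15 were tested and 1 passed, against 2.35% of all genes. Sox17, an endoderm factor that can pair with Oct4, rose by 1.33 on the log2 scale (SE 0.30, edgeR adjusted p = 0.0365), from 22.5 and 31.3 CPM in SO+ embryos to 74.5, 99.3 and 37.9 CPM in SO− embryos. It lost the threshold without SO− embryo 1 (log2 1.24, edgeR adjusted p = 0.322) and without SO− embryo 2 (1.07, adjusted p = 0.323). Sox2, the partner of Oct4 in the epiblast, had 7.48 and 7.88 CPM in SO+ and 10.6, 9.84 and 12.9 CPM in SO− embryos (log2 fold change 0.56, edgeR adjusted p = 0.514).

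The partners of Oct1 at small nuclear RNA genes, Snapc1 to Snapc5, lay between −0.32 and 0.22 on the log2 scale, and none passed. Hcfc1, the host cell factor that binds Oct1, had a log2 fold change of 0.16 (edgeR adjusted p = 0.657). Pou2af1, the B cell coactivator of Oct1 and Oct2, was at 0 in all embryos. The median of the 15 was 0.02, against −0.0019 for all genes tested.

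Of 10 genes known to be controlled through octamer or POU-SOX elements, 8 were tested and 1 passed. Utf1, an epiblast target of Oct4 and Sox2, fell from 510.7 and 393 CPM in SO+ embryos to 92.9, 65.3 and 149 CPM in SO− embryos 1, 2 and 3. Its log2 fold change was −2.08 (SE 0.23, edgeR adjusted p = 4.06e-04), and it kept an adjusted p under 0.05 with each embryo left out (at most 0.0364 from edgeR). Fgf4 had −1.63 (edgeR adjusted p = 0.140), and Nanog (0.02), Zfp42 (0.15) and Lefty1 (0.32) had an adjusted p of 0.494 or more. The median of the 8 was −0.07, against −0.0019 for all genes tested, with 4 above 0 and 4 below.

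Nes, the neural progenitor gene whose enhancer binds Sox2 with class III POU factors such as Pou3f2, had 33.4 and 22.3 CPM in SO+ embryos, against 12.1, 10.7 and 21.2 CPM in SO− embryos 1, 2 and 3. Like Pou3f1, it was lowest in SO− embryos 1 and 2, and in SO− embryo 3 it came close below SO+ embryo 2. Its log2 fold change was −0.85 (SE 0.30, edgeR adjusted p = 0.200), and it passed in 1 of the 5 fits with an embryo left out, without SO+ embryo 2 (−1.11, edgeR adjusted p = 0.0407). In the other 4 it lay between −1.26 (without SO− embryo 3) and −0.54 (without SO+ embryo 1), with an edgeR adjusted p from 0.0786 to 0.752.

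**Figure D4:**
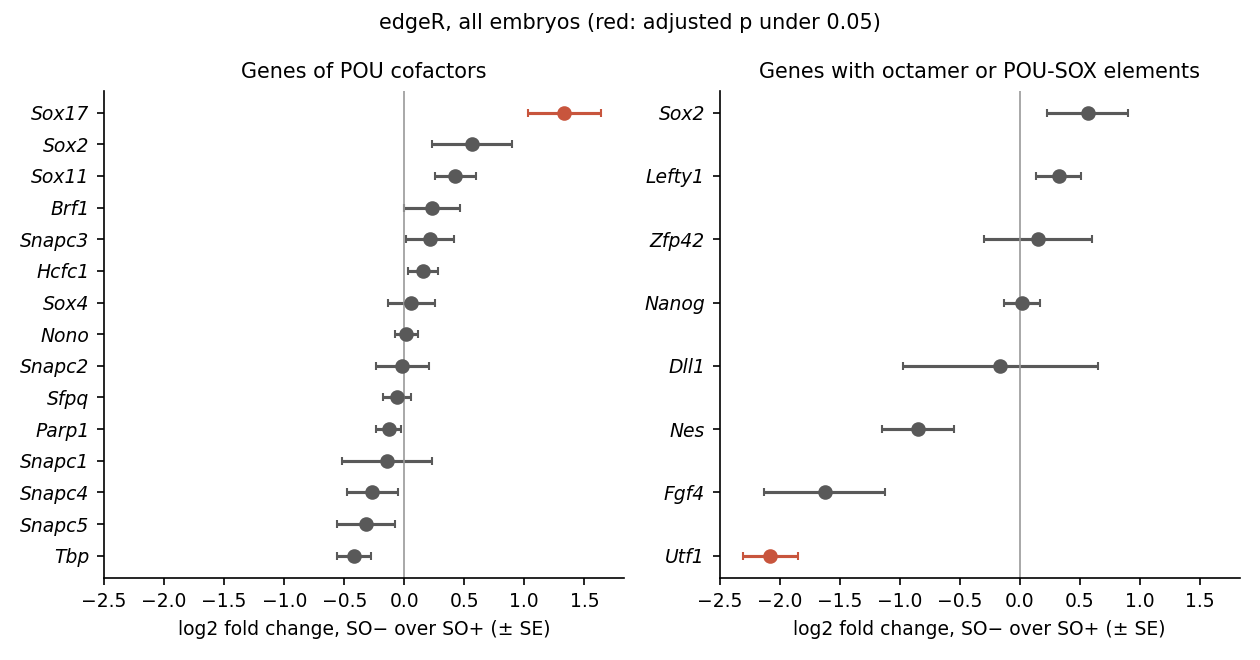
Fitted log2 fold change (SO− over SO+) with its standard error for the 15 tested genes of POU cofactors (left) and the 8 tested genes with octamer or POU-SOX elements (right), in red where the adjusted p was under 0.05. Sox17, at 1.33, and Utf1, at −2.08, are the red points, and Sox2 stands on both sides at 0.56.

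Summed markers of the tissues in or next to the samples were set beside Pou3f1. The 12 VE markers summed to 2540 and 2796 CPM in SO+ embryos, and to 3943, 3875 and 2424 CPM in SO− embryos 1, 2 and 3. The embryos with the highest VE sums, SO− embryos 1 and 2, were thus those with the lowest Pou3f1, and SO− embryo 3 had the lowest VE sum. With all embryos, none of the 12 VE markers passed the test, 11 had a positive log2 fold change, and none was at 0 in any embryo. Without SO− embryo 3, a fit that also called Pou3f1, Apob, Rbp4, Cubn, Apoa1 and Ttr passed. They were higher in SO− embryos, with an edgeR adjusted p from 0.0117 (Apob) to 0.0492 (Ttr), where 1.83% of genes were called. The other VE markers did not pass in that fit.

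The 9 epiblast markers summed to 6844 and 6138 CPM in SO+ and to 4111, 3831 and 4899 CPM in SO− embryos. Of these markers 2 passed, both lower, Utf1 and Dnmt3b (−0.99, edgeR adjusted p = 0.00392). The sum of the other 7, a choice made after these values were seen, lay between 95.6% and 102.7% of the SO+ mean in every embryo. This sum held genes of opposite sign. Tdgf1 was at −0.40 (edgeR adjusted p = 0.0669) and passed with DESeq2 (adjusted p = 0.0263, where 2.52% of genes were called). Fgf5 was at 0.38 (edgeR adjusted p = 0.274). The 10 ExE markers summed to 65.0 and 78.3 CPM in SO+ and between 92.8 and 136 CPM in SO− embryos. Most of each sum was Krt7 and Ets2. Ets2 had 37.1 and 41.0 CPM in SO+ and 33.9, 32.2 and 38.4 CPM in SO− embryos. Of the 6 ExE markers that could be tested, Hand1, also a gene of early mesoderm, rose (3.04, edgeR adjusted p = 0.00754). Krt7, an epithelial keratin, had 15.2 and 20.9 CPM in SO+ and 34.1, 57.3 and 27.0 CPM in SO− embryos (1.05, edgeR adjusted p = 0.0827). The ExE sum was highest in SO− embryo 2, where Elf5 and Esrrb had 0 counts and the limit of 3 counts was 2.68 CPM. Elf5 had 2.62 CPM in SO− embryo 3 against 0.109 and 0.185 CPM in SO+ embryos.

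The 10 neural markers summed to 47.1 and 31.8 CPM in SO+ and to 17.4, 13.4 and 20.3 CPM in SO− embryos. Of the 3 tested, Tubb3, a neuronal tubulin, fell by 1.74 on the log2 scale (edgeR adjusted p = 0.00800), from 36.4 and 23.7 CPM to 8.46, 5.37 and 11.2 CPM, so that it made up most of the neural sum in SO+ embryos. Tubb3 did not pass with limma-voom (adjusted p = 0.233). Six3, a gene of the anterior neural plate, had the opposite sign (2.37, edgeR adjusted p = 0.0894), with 0.799 and 0.850 CPM in SO+ and 4.11, 5.37 and 3.82 CPM in SO− embryos. Without SO− embryo 1 or SO− embryo 2, Dnmt3b, Hand1 and Tubb3 lost the threshold (edgeR adjusted p from 0.0783 to 0.141). Markers of maternal blood and decidua summed to at most 6.10 CPM in an embryo, with 6 of 9 at 0 throughout. In SO− embryo 3, where Pou3f1 was at 94.0% of the SO+ mean, the ExE and neural sums were at 129.5% and 51.4%. The part of VE, ExE or neural content in the level of Pou3f1 was not tested. In whole-tissue samples, fewer cells of a type and less RNA per cell cannot be told apart.

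**Figure D5:**
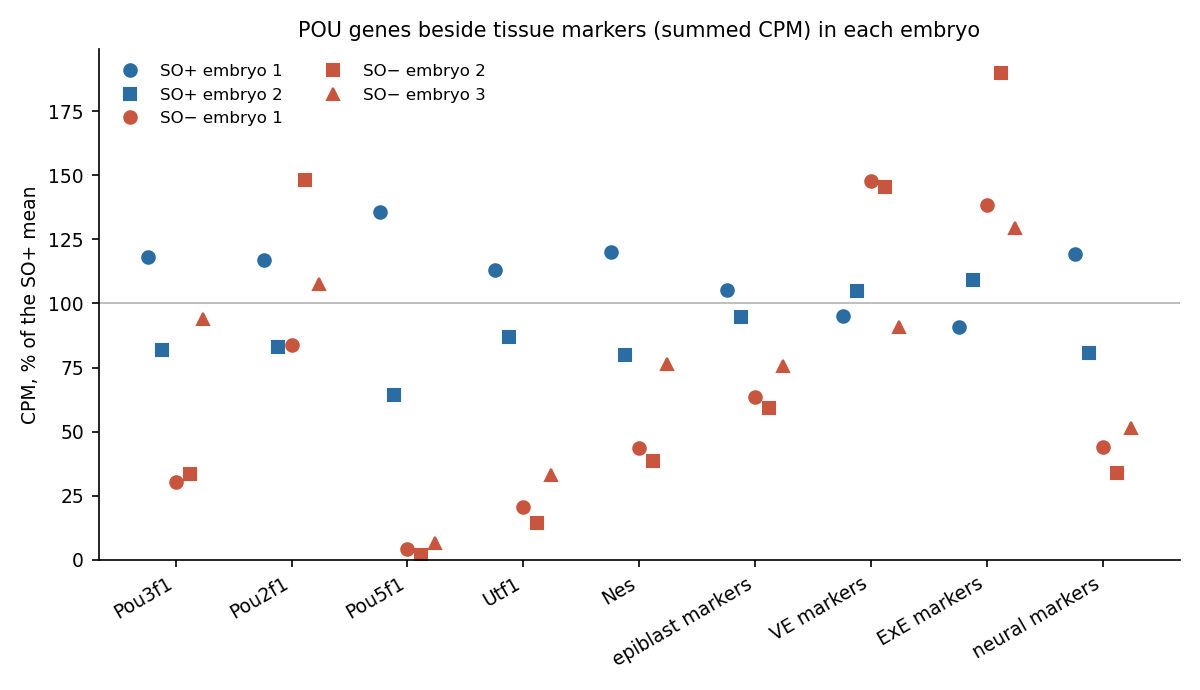
CPM of Pou3f1, Pou2f1, Pou5f1, Utf1 and Nes and summed CPM of 4 lists of tissue markers in each embryo, as a percentage of the SO+ mean (line at 100, axis from 0). Circles, squares and triangles are embryos 1, 2 and 3. SO− embryos 1 and 2 stand at 30.5% and 33.6% for Pou3f1 and at 148% and 145% for the VE markers, whereas SO− embryo 3 stands at 94.0% and 90.9%.

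The genes with expression profiles most like that of Pou3f1 were found by the root mean square distance between centred log2(CPM + 1) values over the 5 embryos, as a description. The closest of 12066 genes were Ptgds (0.117), Gm26707 (0.129), Gm26762 (0.130), Tmco4 (0.155) and Gramd2 (0.167), against a median distance of 0.808. Ptgds, which encodes a prostaglandin D synthase, had 8.10 and 4.55 CPM in SO+ embryos, against 1.69, 1.79 and 5.96 CPM in SO− embryos. All 5 were expressed below 10 CPM, where SO− embryo 2 had at most 2 counts of any of them, and none passed the test. Pou2f1, at a distance of 0.857, and Pou5f1, at 1.79, were farther from Pou3f1 than the median gene was.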

How the data were processed

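Per the paper's methods and the labels, the authors made SmartSeq2 libraries, trimmed reads with cutadapt, mapped them with STAR to GRCm38/mm10 and deposited whole-number HTSeq-count counts per Ensembl gene, without normalization. Counts were analysed as deposited in R 4.3.3 with edgeR 4.0.16 (TMM, filterByExpr, quasi-likelihood test, genotype as the only term) on all genes, with Benjamini-Hochberg adjustment and a threshold of 0.05. Standard errors (SE) were computed as |log2 fold change|/√F. Gene positions and lengths came from GENCODE M21 (GRCm38), which matched 99.5% of genes. The test was checked on simulated counts. Alternatives were DESeq2 1.42.0, limma-voom (limma 3.58.1), other scalings and filters, the replicate number as a block, thinned SO+ libraries (10 draws) and each embryo left out. No 2 libraries of a genotype were alike within sampling noise (chi-square/df 2.89 to 32.7). Members and gene lists were chosen with earlier results of these data known. Named genes were the members, Pou5f1, listed genes that passed, genes at 0, partners of members and the 5 nearest profiles; Nes, Fgf4, Nanog, Zfp42, Lefty1, Hcfc1 and the markers named were chosen after their values were seen. Some genes of these lists are not reported here.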

Additional observations from a re-analysis of the deposited data

How the results depend on the processing

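The replicate numbers name different embryos. Deviations from the genotype mean of same-numbered embryos correlated at 0.0077 and 0.115. With 2 SO+ embryos these deviations mirror each other, so the values cannot decide whether same-numbered embryos share a litter or preparation. With the replicate number as a block, which leaves the contrast to embryos 1 and 2 of each genotype, 1 of the 8 members was called (Pou3f1, −1.70), 3 octamer target genes were called in place of 1, and all calls rose from 283 to 929. With single embryos left out, the number of members called ranged from 0 to 1, that of octamer target genes from 1 to 2 and that of cofactors from 0 to 1. The log2 fold change of Pou2f1 ranged from −0.11 to 0.38 and changed sign (−0.108 without SO+ embryo 2, −0.055 without SO− embryo 2). With limma-voom no cofactor was called, 91 genes were called in all, and Pou5f1 was at −4.36 with an adjusted p of 0.0639 from limma. Without SO− embryo 1 and without SO− embryo 2, 46 and 35 genes were called in all, and without SO+ embryo 1 and SO+ embryo 2 the numbers were 180 and 573, with the remaining SO+ embryo assumed to vary like the SO− embryos; the cause was not tested. At the size of the smallest library, with 3 counts as the floor, 0 members in place of 1 did not overlap between genotypes. The per-length ratio of Pou3f1 to Pou2f1 in SO+ embryos was 8.91 with the longest transcript. Scaling, filters and thinning moved no call of a member. The depth of SO− embryo 2 limits all statements on the 6 rare members.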
